A study of Drosophila melanogaster with 6 samples.

Results

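A set of 10 named genes of the caspase and ubiquitin machinery of spermatid individualization were followed across the testis libraries of this series. They were taken from the count files by gene symbol, from a list drawn up with earlier results of these data known: the Cullin-3 ubiquitin ligase genes Cul3 and klhl10 with the ligase inhibitor gene soti, the caspase inhibitor gene Bruce, the caspase genes Dronc, Dredd and Drice, the adaptor genes Dark and Fadd, and the testis cytochrome c gene Cyt-c-d. All 10 were found among the 17807 genes of the count files, and all 10 were among the 13960 genes with enough reads to be tested. The reads were counted per gene on the sense strand.

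Individualization is the last large step of sperm formation in Drosophila, in which each syncytial bundle of spermatids is divided into single sperm and most of the cytoplasm is stripped into a waste bag. Caspases, best known as the proteases of apoptosis, are switched on in these elongated spermatids without killing them. The cytochrome c made from Cyt-c-d and the adaptor Dark help to activate the initiator caspase Dronc, which in turn cleaves effector caspases such as Drice. The giant inhibitor Bruce holds caspases back until a ligase built on Cullin-3, with Klhl10 as the adaptor that binds substrates, marks it with ubiquitin, and Soti binds Klhl10 as a pseudosubstrate that limits the ligase. Dredd and Fadd are a caspase and its adaptor that are known mostly from the Imd pathway of immunity.

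The study sequenced polyadenylated RNA of whole testes from 3 genotypes, about 150 pairs of testes to a library. In the cbc knockdown the bamGal4 driver expressed a hairpin against cbc from stock BL 77426, in the Pcf11 knockdown the same driver expressed a hairpin against Pcf11 from stock VDRC 103710, and the control carried bamGal4 with no hairpin. Pcf11 and cbc encode cleavage factor II, a complex that acts in 3′ end formation of transcripts. The bam promoter acts in spermatogonia, so the testes also held cells that the driver did not act in, such as those of the muscle sheath. In all 3 genotypes parents mated for 3 days at 25 °C and their offspring developed at 29 °C, with no age at dissection given. Gene counts were analysed for 2 cbc knockdown libraries, 1 Pcf11 knockdown library and 2 control libraries, and for the other Pcf11 knockdown library only reads across splice junctions were analysed.

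The cbc knockdown libraries held 18954932 and 20510200 gene reads, the Pcf11 knockdown library 79053532 and the control libraries 76132580 and 73600622, so depth set the cbc knockdown libraries apart. The cbc knockdown libraries and the Pcf11 knockdown library with junction reads only have titles of the same style, and the counted Pcf11 knockdown library shares the style of the controls. In the comparisons with cbc knockdown, an effect of batch cannot be told apart from the knockdown. Whether the libraries of a genotype are biological replicates is not stated, and the p-values below cover only the spread seen between libraries, which may be technical. Each hairpin lowered its target: cbc had a log2 fold change of -3.92 ± 0.13 in cbc knockdown against control and Pcf11 of -1.11 ± 0.11 in Pcf11 knockdown against control (SE), while Pcf11 rose by 0.93 ± 0.08 in cbc knockdown. Genes listed as markers of spermatids, the cells in which the pathway acts, were well detected, but which cells held their RNA was not tested. The 12 spermatid markers, among them dj and the protamine gene ProtA, summed to 5086 and 5002 counts per 1e6 reads (CPM) in the cbc knockdown libraries, 12810 CPM in the Pcf11 knockdown library and 14730 and 12960 CPM in the control libraries, and none was at 0 in any library. In cbc knockdown 11 of the 12 fell and 1 rose, with a median log2 fold change of -1.37. The 1 that rose was fzo, at 1.19 ± 0.11 in cbc knockdown and 1.92 ± 0.13 in Pcf11 knockdown (SE). In Pcf11 knockdown 1 fell, 3 rose and 8 did not pass, with a median of 0.16. The 1 that fell was Mst84Db, at 1160 CPM against 3374 CPM in control. Of the other marker lists, spermatogonial genes summed to 194 to 197, 241 and 172 to 186 CPM in cbc knockdown, Pcf11 knockdown and control. Spermatocyte genes summed to 375 to 386, 492 and 457 to 474 CPM in that order. In Pcf11 knockdown both sums lay above the controls, but the median log2 fold changes were -1.30 and -0.47. The genes bgcn and mia made up 195.4 and 171.7 CPM of these 2 sums, against 89.1 and 87.95 CPM in control. In cbc knockdown the medians were -0.10 for spermatogonial and -0.19 for spermatocyte genes. Hub and cyst cell genes summed to 121 to 132, 111 and 219 to 221 CPM in cbc knockdown, Pcf11 knockdown and control. In the same order, muscle sheath genes summed to 260 to 351, 208 and 581 to 592 CPM. Haemocyte genes summed to 47.7 to 62.4, 30.6 and 191 to 224 CPM. Fat body genes summed to 36.4 to 45.5, 25.5 and 6.94 to 7.24 CPM, and accessory gland and ejaculatory duct genes to 218 to 256, 69.5 and 59.7 to 173 CPM. The fat body markers Yp1 and Yp2 and the haemocyte marker He were at 0 in some libraries. The part of these shifts in the results that follow was not tested, and in whole testes fewer cells of a type and less RNA per cell cannot be told apart.

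Levels between genes were compared per kilobase of exon. Cyt-c-d, soti and Cul3 were among the most abundant transcripts of the testis, and the caspase and adaptor genes were near the middle of the genes tested. In control, Cyt-c-d averaged 735 ± 20.2 CPM per kilobase, soti 450 ± 3.46 and Cul3 204 ± 10.1 (SD, n = 2), above 99.2%, 98.4% and 95.04% of the genes tested. The next were klhl10 at 38.4 ± 5.43 CPM per kilobase, Bruce at 16.5 ± 0.0246 and Dronc at 9.69 ± 0.289 in control. Fadd at 6.87 ± 0.0765, Dredd at 6.69 ± 0.0296, Drice at 5.01 ± 0.365 and Dark at 4.78 ± 0.0983 CPM per kilobase made up the lowest part of the control order, and Drice and Dark overlapped. The order of the first 3 was the same in every library. The ligase adaptor gene klhl10 lay above Bruce and Dronc in the Pcf11 knockdown library and in both control libraries, but below both in each cbc knockdown library.

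**Figure D1:**
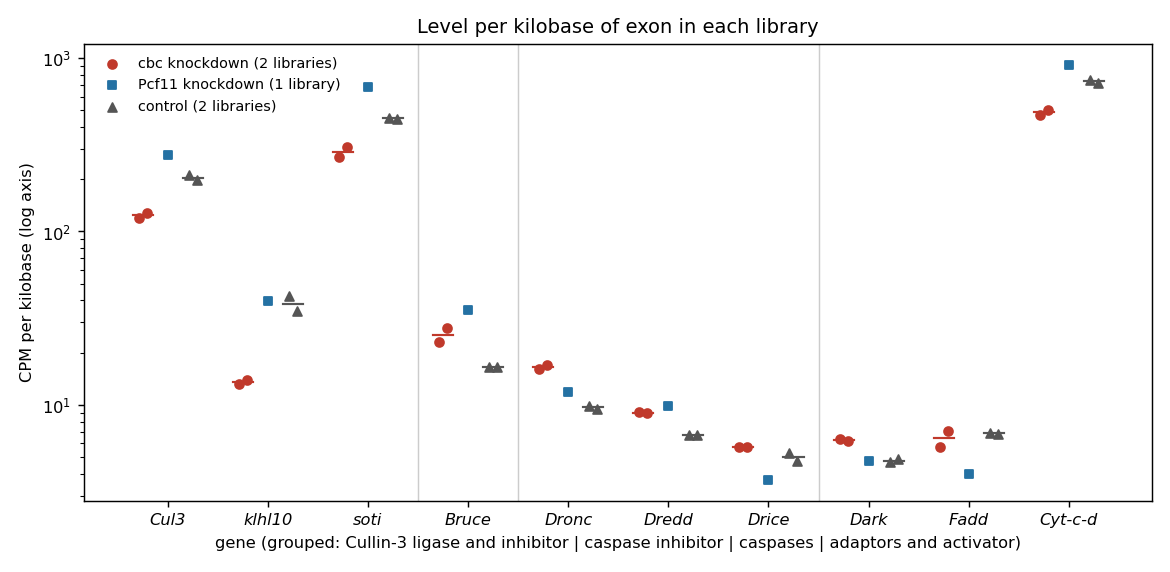
Level of each gene in CPM per kilobase of exon (vertical log axis) in the 2 cbc knockdown libraries, the 1 Pcf11 knockdown library and the 2 control libraries, with a line at the mean of a group of 2. Cyt-c-d, soti and Cul3 lie above 100 in every library, and klhl10 lies at 13.1 and 13.8 in cbc knockdown and between 34.6 and 42.3 in the other libraries.

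In cbc knockdown against control, 8 of the 10 genes passed the test (80.0%), where 74.1% of all genes tested passed (edgeR quasi-likelihood test, Benjamini-Hochberg adjusted p under 0.05). The 4 that rose were Bruce, Dronc, Dark and Dredd, where 36.3% of all genes rose, and the 4 that fell were Cul3, klhl10, soti and Cyt-c-d, where 37.8% of all genes fell. The shares of called genes were thus near those of all genes in either direction, and whether direction went with role was not tested. Drice and Fadd did not pass. All 3 genes of the ligase group and Cyt-c-d, the 4 genes whose control levels per kilobase were highest, fell, while the inhibitor gene, 2 of 3 caspase genes and Dark rose. The median log2 fold change of the members was 0.05, against -0.02 over all genes tested, and only klhl10 differed by at least 2-fold.

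In Pcf11 knockdown against control, 8 of the 10 genes passed as well, where 69.0% of all genes passed. The 6 that rose were Cul3, soti, Bruce, Dronc, Dredd and Cyt-c-d, where 32.6% of all genes rose, and the 2 that fell were Drice and Fadd, where 36.4% of all genes fell. The median of the members was 0.30, against -0.06 over all genes tested, and only Bruce differed by at least 2-fold. This comparison rests on 1 Pcf11 knockdown library that was assumed to vary like the others, and it depended more on the processing: 4 members passed when libraries were scaled by their totals and 5 with the replicate number as a block. Both comparisons share the control libraries, so their values are set side by side here and not correlated.

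**Figure D2:**
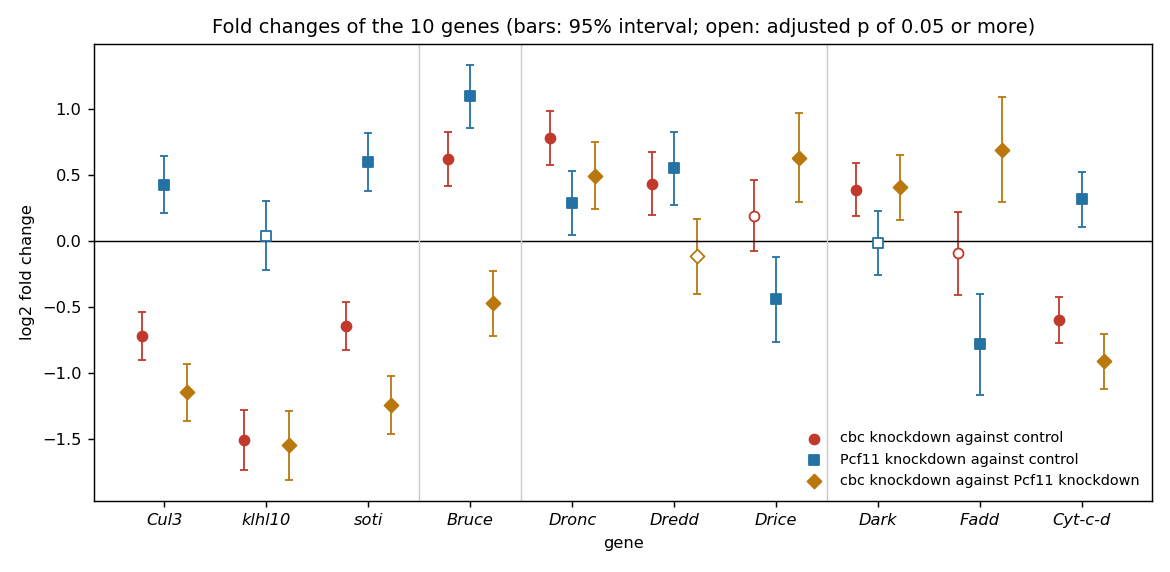
Log2 fold change of each gene in 3 comparisons, with 95% intervals from edgeR as bars and open symbols where the adjusted p was 0.05 or more. Cul3, klhl10, soti and Cyt-c-d lie below 0 in cbc knockdown against control. In Pcf11 knockdown against control klhl10 is at 0.04 with an interval across 0 and the other 3 lie above 0, while Bruce lies above 0 in both comparisons with control.

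Cul3 encodes the scaffold of the ligase. It had 645 and 693 CPM in the cbc knockdown libraries, 1484 CPM in the Pcf11 knockdown library, and 1142 and 1065 CPM in the control libraries. Both cbc knockdown libraries were thus below and the Pcf11 knockdown library was above both controls. The log2 fold change was -0.72 ± 0.08 in cbc knockdown (SE, edgeR adjusted p = 8.97e-06) and 0.43 ± 0.10 in Pcf11 knockdown (edgeR adjusted p = 0.00234). With scaling by library totals the Pcf11 value was 0.14 and no longer passed (edgeR adjusted p = 0.155).

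The substrate adaptor gene klhl10 changed most of the 10 in cbc knockdown. It had 38.1 and 40.2 CPM in cbc knockdown, 114.7 CPM in Pcf11 knockdown, and 123 and 100.5 CPM in control. The cbc knockdown libraries lay far below the other 3, and the Pcf11 knockdown library lay between the controls. In cbc knockdown klhl10 fell by 1.51 ± 0.10 on the log2 scale, to 0.351 of the control level (SE, edgeR adjusted p = 1.17e-07). In Pcf11 knockdown the log2 fold change was 0.04, with a 95% interval of -0.22 to 0.30 (edgeR adjusted p = 0.78), and its sign changed under 3 alternatives. The gene has 2 annotated transcripts on an unmapped scaffold (Unmapped_Scaffold_8_D1580_D1567 from 53442 to 85529, plus strand, BDGP6), with a longest intron of 25795 bases.

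Soti is the inhibitor of this ligase, and its gene moved with Cul3. It had 280 and 317 CPM in cbc knockdown, 706 CPM in Pcf11 knockdown, and 469 and 464 CPM in control, again with cbc knockdown below and Pcf11 knockdown above both controls. The log2 fold changes were -0.65 ± 0.08 in cbc knockdown (SE, edgeR adjusted p = 2.71e-05) and 0.60 ± 0.10 in Pcf11 knockdown (edgeR adjusted p = 0.00023), and both passed in all 12 alternatives. For comparison, the median of the 12 genes listed as spermatid markers was -1.37 in cbc knockdown. This was lower than the values of Cul3 and soti and close to that of klhl10, a difference that was not tested.

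Bruce, the gene of the inhibitor that the ligase marks for removal, rose in both knockdowns. It had 362 and 433 CPM in cbc knockdown, 552 CPM in Pcf11 knockdown, and 258 and 259 CPM in control, and every knockdown library was above both controls. The log2 fold changes were 0.62 ± 0.09 in cbc knockdown (SE, edgeR adjusted p = 7.97e-05) and 1.10 ± 0.11 in Pcf11 knockdown (edgeR adjusted p = 3.82e-06), a 1.54-fold and a 2.14-fold higher level. Both passed in all 12 alternatives. Bruce thus moved against Cul3, klhl10 and soti in cbc knockdown, where it rose and they fell.

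Among the caspase genes, Dronc encodes the initiator caspase. It had 32.6 and 34.4 CPM in cbc knockdown, 23.8 CPM in Pcf11 knockdown, and 19.9 and 19.1 CPM in control, so the 3 genotypes did not overlap. In cbc knockdown it rose by 0.78 ± 0.09 on the log2 scale, or 1.72-fold (SE, edgeR adjusted p = 1.36e-05). In Pcf11 knockdown the value was 0.29 ± 0.11 (edgeR adjusted p = 0.038), a call lost in 6 of 12 alternatives, among them without control library 1 (edgeR adjusted p = 0.0604), without control library 2 (edgeR adjusted p = 0.143) and with the replicate number as a block (edgeR adjusted p = 0.0787).

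Dredd, the initiator caspase gene of the Imd pathway, had 15.0 and 14.8 CPM in cbc knockdown, 16.1 CPM in Pcf11 knockdown, and 11.06 and 10.99 CPM in control. The knockdown libraries all lay above both controls. The log2 fold changes were 0.43 ± 0.11 in cbc knockdown (SE, edgeR adjusted p = 0.00354) and 0.55 ± 0.12 in Pcf11 knockdown (edgeR adjusted p = 0.002), of which the second did not pass with library totals (0.26, edgeR adjusted p = 0.123). Of the exon bases of Dredd, 61 overlap mir-9372 on the same strand, and these bases were left out of its length.

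Drice encodes an effector caspase, cleaved by Dronc. It had 10.98 and 11.04 CPM in cbc knockdown, 7.11 CPM in Pcf11 knockdown, and 10.2 and 9.16 CPM in control. The cbc knockdown libraries lay just above and the Pcf11 knockdown library below both controls. In cbc knockdown the log2 fold change was 0.19, with a 95% interval of -0.08 to 0.46 (edgeR adjusted p = 0.181), and it passed with library totals only (0.44, edgeR adjusted p = 0.00681). In Pcf11 knockdown the value was -0.44 ± 0.15 (SE, edgeR adjusted p = 0.0187), a call lost in 4 of 12 alternatives, among them without control library 1 (-0.37, edgeR adjusted p = 0.104) and with the replicate number as a block (-0.40, edgeR adjusted p = 0.06).

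Dark, the gene of the apoptosome adaptor that gathers Dronc, had 31.0 and 30.1 CPM in cbc knockdown, 23.1 CPM in Pcf11 knockdown, and 23.0 and 23.7 CPM in control. The cbc knockdown libraries stood above the other 3, which overlapped. It rose by 0.39 ± 0.09 in cbc knockdown (SE, edgeR adjusted p = 0.00237), and in Pcf11 knockdown the value was -0.02, with a 95% interval of -0.26 to 0.23 (edgeR adjusted p = 0.907), and its sign changed under 3 alternatives. Of the exon bases of Dark, 56.9% overlap asRNA:CR44390 on the opposite strand, so the values given here come from its stranded counts.

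Fadd, the death-domain adaptor gene of Dredd, had the fewest reads of the 10 in every library, without regard to gene length. It had 147 and 194 reads in cbc knockdown, 292 reads in Pcf11 knockdown, and 580 and 581 reads in control. These correspond to 6.67 and 8.27 CPM in cbc knockdown, 4.63 CPM in Pcf11 knockdown, and 8.05 and 7.92 CPM in control. The cbc knockdown libraries enclosed the controls, and the Pcf11 knockdown library lay below all others. In cbc knockdown the log2 fold change was -0.09, with a 95% interval of -0.41 to 0.22 (edgeR adjusted p = 0.564), and its sign turned without cbc library 1 (0.04). In Pcf11 knockdown Fadd fell by 0.79 ± 0.17 (SE, edgeR adjusted p = 0.00166), which passed in all 12 alternatives.

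Cyt-c-d, which encodes the cytochrome c of the testis that is needed for caspase activation in spermatids, had 393 and 419 CPM in cbc knockdown, 766 CPM in Pcf11 knockdown, and 627 and 603 CPM in control. Its pattern was like that of Cul3 and soti, with cbc knockdown below and Pcf11 knockdown above both controls. The log2 fold change was -0.60 ± 0.08 in cbc knockdown (SE, edgeR adjusted p = 2.93e-05). In Pcf11 knockdown it was 0.32 ± 0.10 (edgeR adjusted p = 0.0109), which did not pass with library totals (0.03, edgeR adjusted p = 0.77) or with the replicate number as a block (edgeR adjusted p = 0.0583). All 8 calls in cbc knockdown against control, including that of Cyt-c-d, passed in all 12 alternatives. Of the exon bases of Cyt-c-d, 36.4% overlap CG31808 on the opposite strand, so the levels given here come from its stranded counts.

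Set directly against each other, the knockdowns differed in 9 of the 10 genes, where 71.9% of all genes passed. In cbc knockdown against Pcf11 knockdown the 4 genes Dronc, Dark, Drice and Fadd were higher, where 42.2% of all genes were higher, and the 5 genes Cul3, klhl10, soti, Bruce and Cyt-c-d were lower, where 29.7% of all genes were lower. The median of the members was -0.30, against 0.27 over all genes tested. The log2 fold changes of the lower genes were -1.55 ± 0.12 for klhl10, -1.24 ± 0.10 for soti, -1.15 ± 0.10 for Cul3, -0.91 ± 0.09 for Cyt-c-d and -0.47 ± 0.11 for Bruce (SE). Those of the higher genes were 0.69 ± 0.18 for Fadd, 0.63 ± 0.15 for Drice, 0.49 ± 0.12 for Dronc and 0.41 ± 0.11 for Dark. The calls of Cul3, klhl10, soti, Cyt-c-d and Dronc held in all 12 alternatives, while that of Dark was lost in 4, those of Drice and Fadd with DESeq2 and that of Bruce with library totals. For Dredd the difference was -0.12, with a 95% interval of -0.40 to 0.17 (edgeR adjusted p = 0.435). With library totals, which moved the median of all genes by 0.53, Bruce was at 0.0575 and did not pass (edgeR adjusted p = 0.627), and Dredd was at 0.42 and passed (edgeR adjusted p = 0.0209).

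Among 7900 genes with a mean of at least 10 CPM, profiles over the 5 libraries were compared by the Euclidean distance of log2 CPM centred on each gene's mean. Nearest to klhl10 were CG14929, CG34292 and CG30369, at distances of 0.0593, 0.0824 and 0.102. Nearest to soti were verm, Pos and CG42266, at 0.0540, 0.0648 and 0.0880, and nearest to Cyt-c-d were CG13700, Argk2 and CG8584, at 0.0488, 0.0608 and 0.0653. The distances describe likeness over 5 libraries of 3 genotypes only.

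Since the series knocked down factors of transcript 3′ ends, reads on the strand opposite to each gene were also read from the count files. The antisense share of stranded reads was below 1% in every library for Cul3, soti, Bruce and Cyt-c-d. It was highest for Drice, at 17.4% and 22.9% in the cbc knockdown libraries, 15.95% in the Pcf11 knockdown library, and 6.87% and 6.80% in the control libraries. In CPM, antisense reads at Drice were at 2.32 and 3.28 in cbc knockdown, 1.35 in Pcf11 knockdown, and 0.749 and 0.668 in control, so that the 3 genotypes did not overlap. These shares rest on 51 and 77 antisense reads in cbc knockdown, 85 in Pcf11 knockdown, and 54 and 49 in control. On the other strand Etfb, which encodes a subunit of an electron transfer flavoprotein, ends 14 bases from the end of Drice, and its own sense level fell, by 0.60 ± 0.13 in cbc knockdown (edgeR adjusted p = 0.000968) and by 0.64 ± 0.15 in Pcf11 knockdown (edgeR adjusted p = 0.00254). The antisense share of klhl10 was 3.89% and 3.48% in cbc knockdown, 0.782% in Pcf11 knockdown, and 0.941% and 0.848% in control, while its antisense CPM of 1.54 and 1.45, 0.904, and 1.17 and 0.859 in the same order moved much less than its sense CPM. For Fadd the share was 9.26% and 8.49%, 3.95%, and 5.38% and 5.84% in the same order. Dronc also has a gene on the other strand, CG6674, which ends 148 bases from its end. The antisense share of Dronc was 1.24% and 1.83% in cbc knockdown, 2.60% in Pcf11 knockdown, and 1.78% and 1.48% in control. Over all genes the share was 3.52% and 3.63% in cbc knockdown, 3.16% in Pcf11 knockdown, and 3.1% and 3.08% in control. No test was made of these shares.

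**Figure D3:**
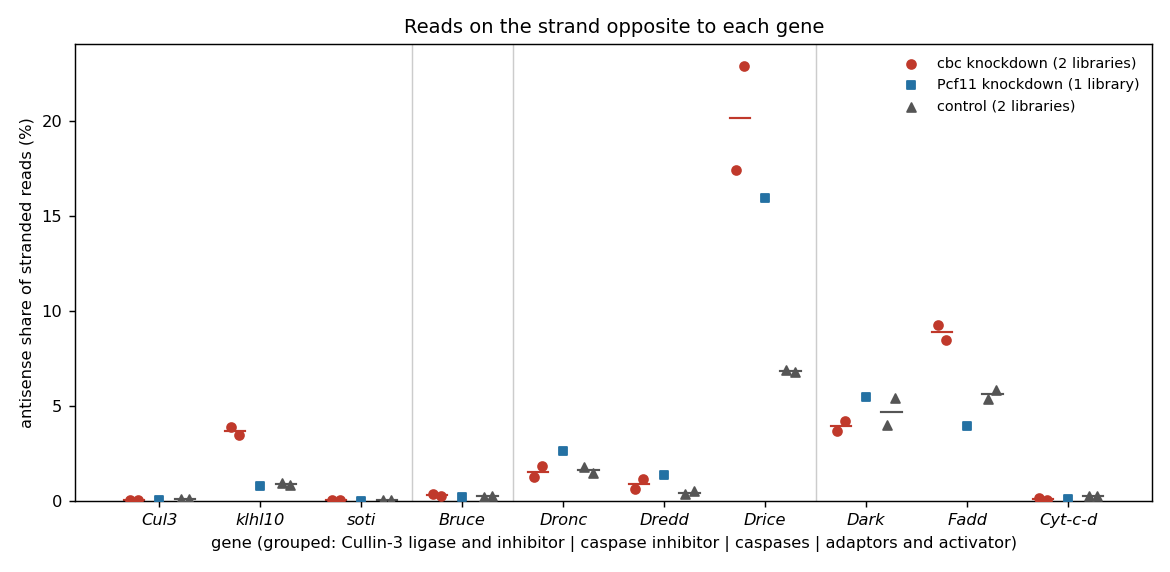
Share of each gene's stranded reads that lay on the opposite strand (vertical axis, percent) in the cbc knockdown, Pcf11 knockdown and control libraries, with a line at the mean of a group of 2. At Drice the knockdown libraries lie at 15.95% or more and the controls at 6.87% or less.

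Genes of the same strand that start within 1 kilobase downstream were read in the same way. CG6293, which begins 425 bases after Bruce, was higher by 2.71 ± 0.26 in cbc knockdown and by 1.49 ± 0.30 in Pcf11 knockdown, at 2.61, 1.13 and 0.399 CPM in cbc knockdown, Pcf11 knockdown and control. The gene yuri, 552 bases after Cul3, moved as Cul3 did, at -0.34 ± 0.08 and 0.74 ± 0.09. RhoGEF2, 486 bases after Dark, fell in both, at -0.41 ± 0.09 and -1.15 ± 0.11. Cyt-c-p, the general cytochrome c gene, which begins 296 bases after Cyt-c-d, fell by 0.42 ± 0.08 in cbc knockdown and by 0.63 ± 0.10 in Pcf11 knockdown (SE, edgeR adjusted p = 0.000673 and 0.000168). It was thus lower in the 1 Pcf11 knockdown library, where its testis paralog Cyt-c-d was higher. That rise of Cyt-c-d was 0.32, but 0.03 with library totals.

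Splice junctions of the genes were counted in Pcf11 knockdown library 1 alone, so no genotype is compared. The file held 10381354 uniquely mapped junction reads. Of the 10 genes, Cul3 had 18809 junction reads, Bruce 5477, Cyt-c-d 4656 and klhl10 1661, and the intronless gene Fadd had 0. Cul3 is known to have a testis form with a first exon of its own, and its start showed a clear preference. The first intron of FBtr0302159 (2L from 15269205 to 15269373, minus strand, BDGP6) had 1442 reads and the intron of the other 3 transcripts (from 15269205 to 15270904) had 331, a share of 81.3% (exact 95% interval 79.4% to 83.1%, counting error only). Of the 3 more distal first exons, that of FBtr0302157 had 476 reads and the others had 5 and 5. The 8 introns common to all Cul3 transcripts had between 1445 and 2704 reads.

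At klhl10, the intron of 25795 bases was spliced in 459 reads, and the 4 introns common to both transcripts had between 181 and 459. The last of these also had 252 reads that mapped to more than 1 place, and such reads are not part of the gene counts. The first intron of FBtr0113685 had 290 reads, a junction outside the annotation that ends at the same base had 31, and the first intron of FBtr0113686 was not detected. The single-exon gene soti had 300 and 31 reads across a pair of introns (3R from 14381065 and from 14381076 to 14381120, minus strand) that the annotation does not hold.

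Bruce, whose 5 transcripts have 31 to 33 exons, was spliced at all 36 of its annotated introns. An exon found in FBtr0331681 only was joined by 87 and 124 reads on its sides and skipped by 34, and an exon found in all transcripts but FBtr0331682 was joined by 3 and 4 reads and skipped by 187, so that skipping took 98.4% and 97.9% of the reads at its flanking splice sites. The single intron of Dronc had 66 reads, and the 9 introns common to the Dark transcripts had between 20 and 39. At Cyt-c-d the annotated intron of 2908 bases had 4499 reads, and 73 reads spanned an unannotated intron of 86 bases near its start. Dredd had 240 of its 241 junction reads on annotated introns, and Drice had 13 reads on 1 unannotated intron.

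**Figure D4:**
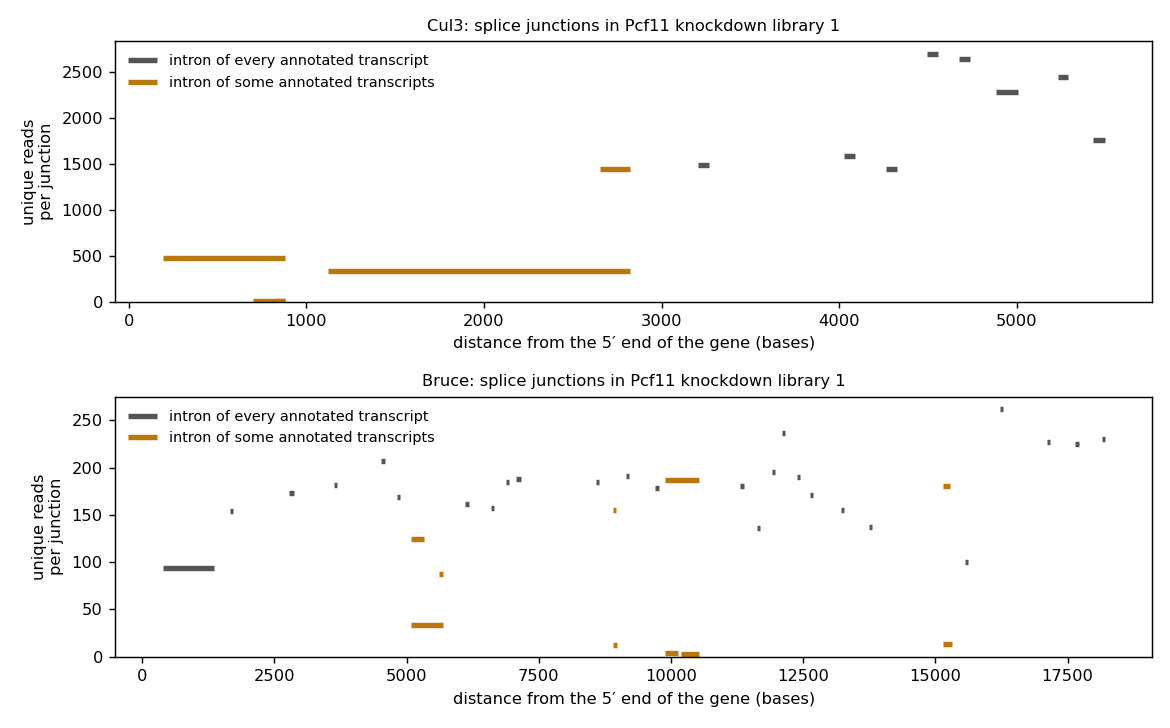
Uniquely mapped reads per annotated splice junction (vertical axis) along Cul3 and Bruce in Pcf11 knockdown library 1, each drawn as a line from intron start to end against the distance from the 5′ end of the gene in bases. Introns of some transcripts only range from 5 to 1442 reads in Cul3 and from 3 to 187 reads in Bruce.

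The wider pathway was read from 9 lists of 79 names, of which 75 were tested. They are described by counts and medians, which can be set against the shares of all genes given above and the medians of all genes of -0.02 and -0.06. Among partners of the ligase, 9 of 12 genes of the cullin core and the Nedd8 pathway fell and 1 rose in cbc knockdown, with a median of -0.45, and 5 fell and 3 rose in Pcf11 knockdown, with a median of -0.09. Roc1b, the RING subunit known to work with Cul3 in spermatids, fell by 1.97 ± 0.10 in cbc knockdown, to 12.7 and 14.3 CPM against 55.9 and 50.2 CPM in control, and was at 52.0 CPM in the Pcf11 knockdown library, within the control range. Roc1a, another RING subunit, fell by 1.36 ± 0.11 in cbc knockdown and by 1.35 ± 0.14 in Pcf11 knockdown. Nedd8, the modifier that activates cullins, fell by 1.04 ± 0.09 in cbc knockdown and was at -0.30 ± 0.11 in Pcf11 knockdown. In Pcf11 knockdown the scaffold gene Cul4 fell by 1.40 ± 0.12 and SkpA, an adaptor of Cul1, by 1.22 ± 0.12. In cbc knockdown Cul4 was at -0.50 ± 0.10 and SkpA at -0.40 ± 0.09 (SE).

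Other BTB adaptors that bring substrates to Cul3 mostly moved against klhl10 in cbc knockdown. Of these 7 genes, 5 rose and 1 fell in cbc knockdown, with a median of 0.58, and 3 rose and 4 fell in Pcf11 knockdown, with a median of -0.28. The ring canal gene kel rose by 1.41 ± 0.09, BTBD9 by 1.30 ± 0.08 and rdx by 0.88 ± 0.08 in cbc knockdown. In Pcf11 knockdown BTBD9 rose by 1.505 ± 0.09 and dbo by 1.23 ± 0.09, and inc fell by 1.26 ± 0.15. There kel was at 0.99 ± 0.10 and rdx at -0.28 ± 0.10. In cbc knockdown dbo was at 0.58 ± 0.08 and inc at -0.50 ± 0.12. Of the 8 COP9 signalosome genes, whose complex removes Nedd8 from cullins, 2 fell and 6 did not pass in cbc knockdown (median -0.01), and 5 fell and 3 did not pass in Pcf11 knockdown (median -0.27). They were alien at -0.92 ± 0.08 and CSN4 at -0.77 ± 0.08 in cbc knockdown, and alien at -0.71 ± 0.10, CSN8 at -0.59 ± 0.14 and CSN3 at -0.30 ± 0.10 among those of Pcf11 knockdown, of which CSN3 did not pass with RLE scaling (-0.16, edgeR adjusted p = 0.172) or with DESeq2.

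Of the other 4 caspase genes, 3 rose and 1 did not pass in cbc knockdown (median 0.86), and 1 rose and 1 fell in Pcf11 knockdown (median 0.08). The effector caspase gene Dcp-1, a close relative of Drice, rose by 1.17 ± 0.13 in cbc knockdown, to 16.5 and 13.4 CPM against 6.45 and 6.78 CPM in control. Strica rose by 0.84 ± 0.13 in cbc knockdown and fell by 0.93 ± 0.17 in Pcf11 knockdown, and Decay rose by 0.88 ± 0.18 in cbc knockdown and by 1.997 ± 0.18 in Pcf11 knockdown. The level of Decay was 4.36 and 3.63 CPM in cbc knockdown, 8.65 CPM in Pcf11 knockdown, and 1.97 and 2.36 CPM in control.

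Among inhibitor of apoptosis genes and their antagonists, 5 of 7 were tested, with 1 higher and 3 lower in cbc knockdown (median -0.60) and 2 higher and 2 lower in Pcf11 knockdown (median -0.04). Diap2, another caspase inhibitor, rose in both like Bruce, by 0.68 ± 0.08 in cbc knockdown and by 0.80 ± 0.09 in Pcf11 knockdown. The death activator hid fell by 0.76 ± 0.11 in cbc knockdown and rose by 0.59 ± 0.12 in Pcf11 knockdown, a rise that did not pass with library totals (0.30, edgeR adjusted p = 0.0735). The death activator rpr had 0.817 and 0.682 CPM in cbc knockdown, 0.349 CPM in Pcf11 knockdown, and 2.83 and 3.11 CPM in control, and fell by 1.99 ± 0.24 in cbc knockdown and by 3.08 ± 0.29 in Pcf11 knockdown (SE). These levels rest on 18 and 16 reads in cbc knockdown and 22 reads in Pcf11 knockdown. Of the 6 apoptosis regulators upstream of Dark, 4 fell in cbc knockdown (median -1.02) and 5 in Pcf11 knockdown (median -1.12), and the others did not pass. Traf4, which encodes an adaptor of TNF signalling, fell by 2.24 ± 0.17 in cbc knockdown and 1.28 ± 0.18 in Pcf11 knockdown. The TNF ligand gene egr fell by 1.16 ± 0.17 in cbc knockdown and was at -0.83 ± 0.19 in Pcf11 knockdown. The TNF receptor gene wgn fell by 1.05 ± 0.14 in cbc knockdown and 1.66 ± 0.17 in Pcf11 knockdown. The Bcl-2 family gene Buffy fell by 1.62 ± 0.15 in Pcf11 knockdown and was at -0.997 ± 0.12 in cbc knockdown.

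Of 9 other genes listed for caspase regulation in spermatids, 2 rose and 5 fell in cbc knockdown (median -0.27), and 6 rose and 3 fell in Pcf11 knockdown (median 0.53). ScsbetaA, a Krebs cycle enzyme subunit that binds the Cullin-3 ligase, had 287 and 268 CPM in cbc knockdown, 685 CPM in Pcf11 knockdown, and 986 and 952 CPM in control, and fell by 1.81 ± 0.08 in cbc knockdown. The F-box gene ntc, which is needed for caspase activity in spermatids, had 348 and 343 CPM in cbc knockdown, 790 CPM in Pcf11 knockdown, and 428 and 406 CPM in control, and rose by 0.92 ± 0.09 in Pcf11 knockdown. The gene eIF3m, also named Tango7, whose product acts on caspases at the individualization complex, fell by 0.46 ± 0.08 in cbc knockdown. In Pcf11 knockdown eIF3m was at 0.30 ± 0.10. Fbxo42 rose by 0.60 ± 0.08 in cbc knockdown and by 1.001 ± 0.09 in Pcf11 knockdown, and nclb fell by 1.16 ± 0.16 in Pcf11 knockdown.

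Of 15 tested genes of the individualization machinery, 1 rose and 8 fell in cbc knockdown (median -0.23), and 7 rose and 4 fell in Pcf11 knockdown (median 0.08). The gene jar, which encodes the myosin VI of the actin cones, had 289 and 294 CPM in cbc knockdown, 723 CPM in Pcf11 knockdown, and 494 and 459 CPM in control, and fell by 0.71 ± 0.08 in cbc knockdown. The VAP protein gene fan fell by 1.54 ± 0.08 in cbc knockdown, and aux, the clathrin-uncoating factor auxilin, rose by 1.03 ± 0.08. In Pcf11 knockdown the filamin gene cher fell by 1.501 ± 0.13, the sterol transporter gene Npc1a by 1.04 ± 0.10 and scat, of the GARP tethering complex, by 0.93 ± 0.11. Of 9 partners of Dredd and Fadd in the Imd pathway, 4 rose and 4 fell in cbc knockdown (median 0.07), and 4 rose and 3 fell in Pcf11 knockdown (median 0.03). The receptor gene PGRP-LC rose by 1.51 ± 0.12 in cbc knockdown and by 1.15 ± 0.14 in Pcf11 knockdown. In cbc knockdown the NF-κB gene Rel rose by 0.88 ± 0.09 and the kinase gene IKKbeta by 0.82 ± 0.10. In Pcf11 knockdown Rel was at -0.68 ± 0.11 and IKKbeta at 0.01 ± 0.12. The adaptor gene imd rose by 1.64 ± 0.09 in Pcf11 knockdown, to 103 CPM against 32.6 and 33.5 CPM in control, and the kinase gene Tak1 fell by 1.43 ± 0.16 there. In cbc knockdown imd was at -0.25 ± 0.09 and Tak1 at -0.68 ± 0.13.

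**Figure D5:**
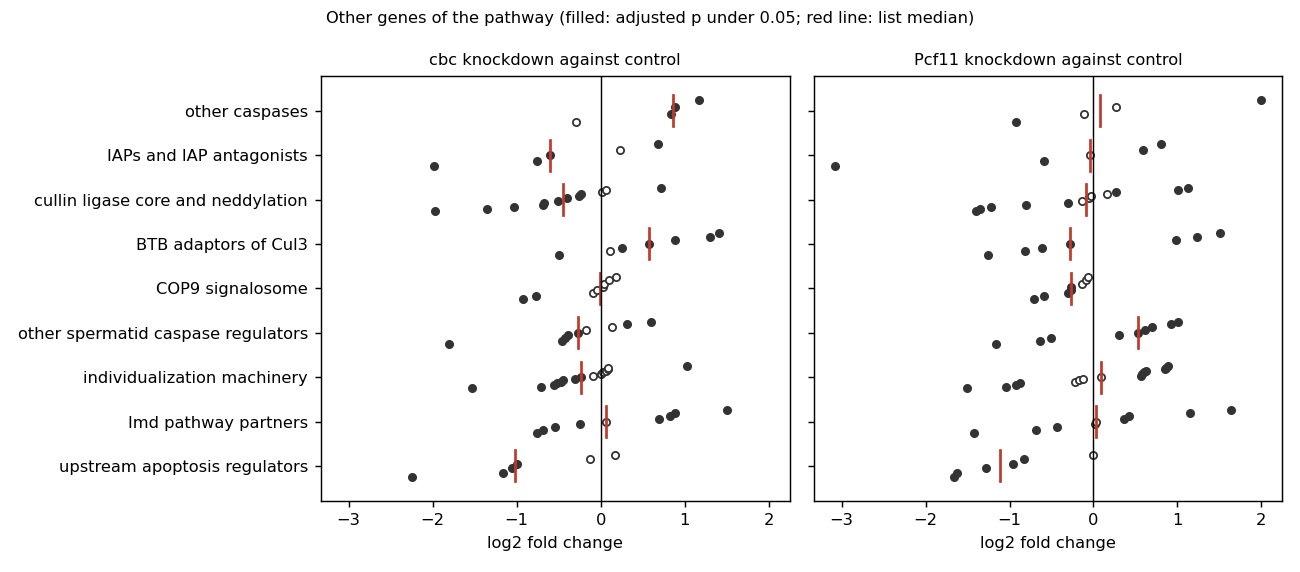
Log2 fold changes of the tested genes of 9 pathway lists in cbc knockdown against control (left) and Pcf11 knockdown against control (right), with 1 point per gene, filled where the adjusted p was under 0.05, and a red line at the median of the list. The cullin core has a median of -0.45 in cbc knockdown, and the upstream apoptosis regulators have medians of -1.02 and -1.12.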

How the data were processed

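Gene counts of 5 libraries were analysed as the authors deposited them, as raw counts per gene without normalization, and splice-junction read counts, likewise deposited, served for Pcf11 knockdown library 1. STAR, Trim Galore, deepTools and SAMtools and the builds dm6 and BDGP6 are named in the submitters' processing notes, with versions not given in the sources used here. The layout of the deposited files is that of STAR's gene counter, which counts uniquely mapped reads per strand, and the sense strand of the directional kit was used. Names, exon lengths and introns came from the BDGP6.54 annotation, in which 17710 of 17807 gene identifiers were found.

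A gene was tested if 2 or more libraries had at least 10 counts. A quasi-likelihood model of edgeR 4.0.16 (R 4.3.3) with TMM scaling and genotype as the only term was fitted to all 5 libraries, with 2 residual and 9.33 prior degrees of freedom. Tests were two-sided and adjusted by Benjamini-Hochberg over all 13960 genes, with a threshold of 0.05. The SE of a log2 fold change is its size divided by the root of its F, and intervals are 95%. CPM were scaled with TMM factors. Alternatives were RLE scaling, library totals, no filter, only the libraries compared, unstranded counts, a replicate block, each control and cbc library left out, and DESeq2 1.42.0. A crossed replicate block was added after seeing the data.

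The members, pathway lists and marker lists were chosen with earlier results of these data known. All members are named, and of each pathway list up to 3 genes with the largest change past the threshold in each comparison with control. Genes near the members on the genome, and values of Roc1b and some other pathway list genes in the other knockdown, were given outside this rule. For klhl10, soti and Cyt-c-d the 3 genes of most similar profile are named. Cul5 of the cullin list was not analysed here. The fitting steps were tested on simulated data.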

Additional observations from a re-analysis of the deposited data

How the results depend on the processing

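Of 360 fold changes of the 10 genes under 12 alternatives, 329 kept their direction and side of the threshold, 20 lost their call with the same sign, 1 gained one with the same sign and 10 changed sign. Of those that changed sign, Bruce also lost its call and Dredd gained one, both in cbc against Pcf11 knockdown with library totals. The count of members that passed stayed at 8 in cbc knockdown against control and 9 in cbc against Pcf11 knockdown when single libraries were left out, and ranged from 6 to 8 in Pcf11 knockdown against control. In that comparison it was 4 with library totals and 5 with the replicate block. Apart from Bruce in cbc against Pcf11 knockdown, the values that changed sign had not passed. With library totals, the values were 0.15 for Fadd in cbc knockdown against control, -0.24 for klhl10 and -0.0625 for cbc in Pcf11 knockdown against control, and 0.0575 for Bruce and 0.42 for Dredd in cbc against Pcf11 knockdown. Leaving out single libraries, Fadd in cbc knockdown ranged from -0.26 to 0.0436 and klhl10 in Pcf11 knockdown from -0.11 to 0.19, and klhl10 was at -0.0083 with unstranded counts and Dark in Pcf11 knockdown at 0.13 with RLE scaling, 0.0696 with unstranded counts and 0.13 with DESeq2. The cause was not tested.

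Library totals moved the median of all genes by 0.25 in cbc knockdown against control, -0.29 in Pcf11 knockdown against control and 0.53 in cbc against Pcf11 knockdown, and the share of calls that were higher was 61.8%, 33.7% and 77.6%, against 49.1%, 47.3% and 58.6% with TMM. RLE scaling moved it by 0.15 in Pcf11 knockdown against control and -0.14 in cbc against Pcf11 knockdown, and fitting only the libraries compared by -0.17 in the last. Deviations by replicate number had a correlation of -0.104 over 13960 genes between control and cbc knockdown. From 2 pairs this cannot show whether libraries of the same number belong together. With the replicate block 10264, 9187 and 9651 genes passed in the 3 comparisons. With the numbers crossed 10650, 9763 and 10046 genes and 8, 8 and 9 members passed. Pcf11 library 2 could not be left out, and the cbc libraries were the shallowest.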
